A study of Mus musculus with 18 samples.

Results

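IRF7 and the genes of the ISG15 conjugation system were followed in J774.1 cells, a mouse macrophage line, as a set of 6 genes among the 18204 in the table. The members were Irf7, Isg15, Uba7, Ube2l6, Herc6 and Usp18, found by their symbols. They were chosen by the MTOB values of Irf7 and Usp18, which responded to this inhibitor mainly in wildtype cells. The members' MTOB values are therefore given below as a description, without p-values. Counts of members past the limits for a call under MTOB are a description too, and not a test. RNA sequencing covered 18 samples, with 3 biological replicates in each of 6 groups, from 2 genotypes and 3 treatments, and addressed which transcriptional effects of substrate-competitive CTBP inhibitors need CTBP1 and CTBP2. CTBPs are transcriptional co-repressors that carry a dehydrogenase domain.

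The genotypes were wildtype and Ctbp1/2dKO (dKO), in which CRISPR editing had placed a premature stop and a frameshift in both Ctbp1 and Ctbp2. Both kinds of cells were grown out from single cells after electroporation and checked as clones, and the number of clones sequenced per genotype was not given in the sources used here. Genotype and clone therefore cannot be told apart in any comparison of dKO with wildtype. Cells of each genotype received 1.5 mM MTOB (4-methylthio-2-oxobutanoate), 250 µM 4-Cl-HIPP (a hydroxyimino propanoic acid that carries a chlorophenyl group) or vehicle for 4 h. A single PBS/DMSO vehicle group per genotype served both inhibitors, so the MTOB and 4-Cl-HIPP comparisons share their control samples. Because the doses of the inhibitors differed, their values are set side by side and not compared.

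IRF7 is a transcription factor that, once phosphorylated downstream of nucleic acid sensors and Toll-like receptors, drives type I interferon genes, and its own gene is induced by interferon. ISG15 is a ubiquitin-like protein that is joined to target proteins by an enzyme chain: UBA7 activates it, UBE2L6 carries it, and HERC6 is its main ligase in the mouse. USP18 removes ISG15 from its targets and, separately, binds the interferon receptor subunit IFNAR2 and dampens signalling. In macrophages these genes belong to the interferon-stimulated genes, which are switched on downstream of the type I interferon receptor.

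Levels are in TPM, transcripts scaled to a fixed total per sample and corrected for transcript length, which can be set side by side between genes. The number of reads per sample is unknown from these values. All 6 members passed the filter on low values, with a mean normalized count over all samples, as the authors computed it, between 37.3 for Isg15 and 255.5 for Irf7. Ctbp1 fell from 218 ± 18.1 TPM in wildtype vehicle samples to 25.1 ± 0.638 TPM in dKO vehicle samples (SD, n = 3 each). Ctbp2 mRNA was 92.6 ± 4.57 TPM and 75.9 ± 3.13 TPM, a drop below the fold change limit, and the frameshift need not remove the transcript. At the protein level, the study reported loss of both CTBP1 and CTBP2 by western blot. The 7 macrophage markers examined were above 1 TPM in every sample, with a summed level of 2216 to 2568 TPM, and no marker of 6 other cell types was above 1 TPM throughout, with summed levels of at most 2.10 TPM per cell type. In bulk RNA, fewer cells expressing a gene and less RNA per cell cannot be told apart.

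Irf7, Isg15 and Usp18 were higher in dKO than in wildtype cells without any inhibitor, by 5.04-fold, 3.24-fold and 4.97-fold in mean TPM. The conjugation enzymes Uba7 and Ube2l6 and the ligase Herc6 had higher means too, by 1.45-fold, 1.37-fold and 1.43-fold, and did not pass the test. A gene was called at a Benjamini-Hochberg adjusted p below 0.05 over all 16383 genes tested and a fold change above 1.5, from a limma fit of log2(TPM + 1) to the 6 groups. Under vehicle 3 of the 6 members were called higher in dKO, where 4.83% of all tested genes were called, and 3.28% called higher. Under 4-Cl-HIPP 5 of the 6 were called higher in dKO, with Uba7 and Ube2l6 added, where 4.72% of all genes were called. The vehicle samples had also entered the values by which the members were picked, whereas the 4-Cl-HIPP samples had not. A low wildtype vehicle value or a high dKO vehicle value enlarges the difference in MTOB effect that Irf7 and Usp18 were picked for. The choice thus favoured the direction seen under vehicle, and the vehicle p-values of these genes carry that limit. All 18 samples, those of the MTOB contrasts included, gave the residual variance behind the SEs and p-values of both comparisons. All replicates came from the cell line J774.1, and the number of clones behind them was not given, so that the p-values measure the spread between these samples.

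**Figure D1:**
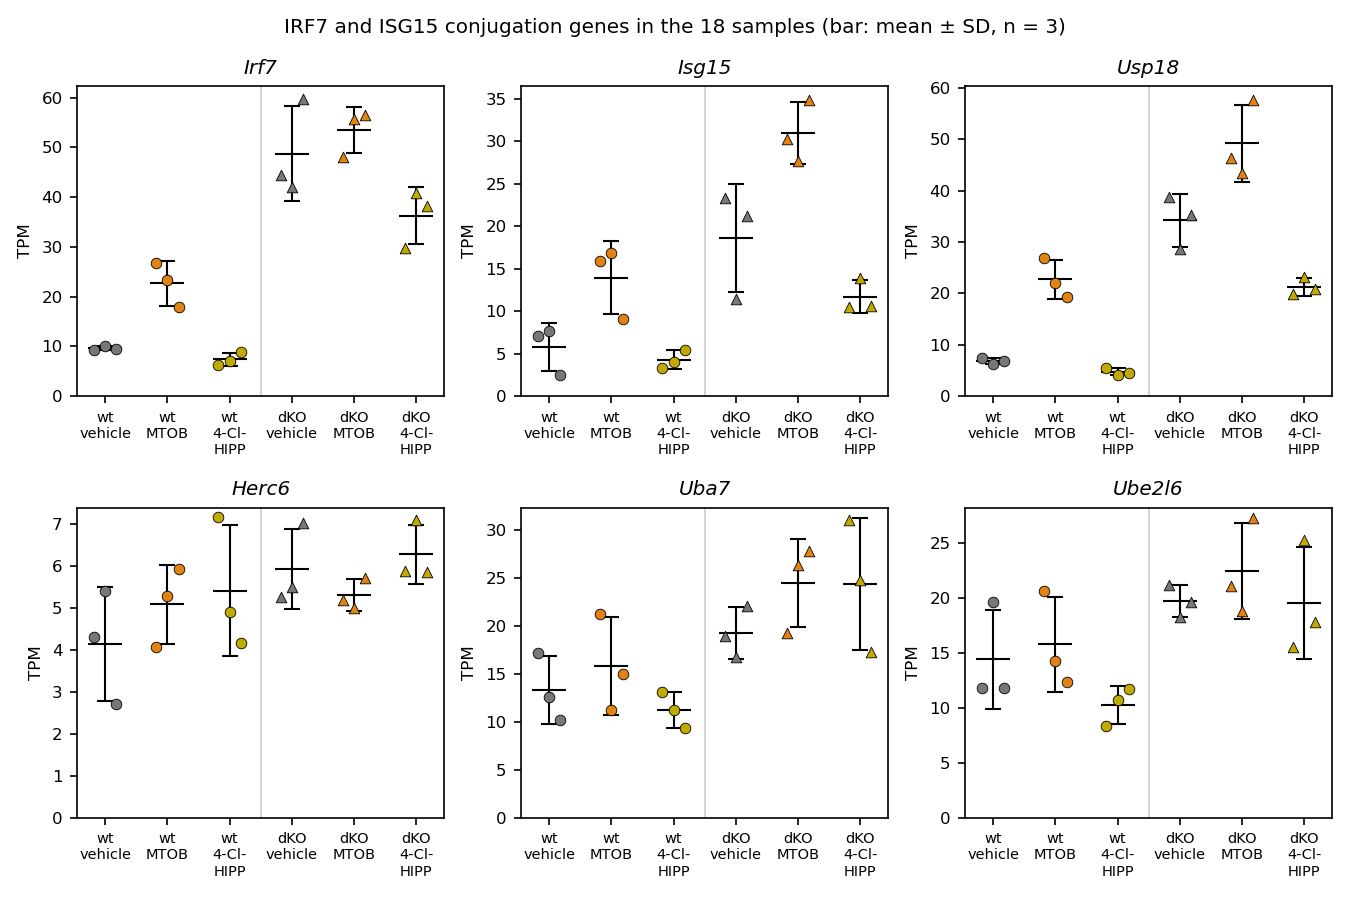
TPM of the 6 members in the 18 samples, by genotype (circles wildtype, triangles dKO) and treatment, with the mean and SD of each group (n = 3). Irf7 and Usp18 lie between 4.17 and 26.9 TPM in the wildtype samples and between 19.9 and 59.7 TPM in the dKO samples, whereas Herc6 stays between 2.71 and 7.17 TPM throughout.

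Irf7, on chr7:140842619-140846398 (GRCm39, minus strand, Gencode M39), encodes the transcription factor of the set. Its level was 9.37, 10.1 and 9.55 TPM in the vehicle-treated wildtype samples and 44.4, 42.1 and 59.7 TPM in the vehicle-treated dKO samples. The groups did not overlap, and the lowest dKO sample stood well above the highest wildtype sample. The difference was 2.21 on the log2 scale (SE 0.16, limma adjusted p = 1.45e-07). Under 4-Cl-HIPP the wildtype samples held 6.27, 7.08 and 8.86 TPM and the dKO samples 29.8, 40.8 and 38.2 TPM, again without overlap. There the log2 difference was 2.15 (SE 0.16, limma adjusted p = 1.96e-07).

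In MTOB-treated wildtype cells Irf7 measured 26.7, 23.4 and 17.9 TPM, all above the vehicle samples, and in MTOB-treated dKO cells 48.1, 55.8 and 56.6 TPM, which overlapped the dKO vehicle samples. These are the values the choice rested on: a log2 fold change over vehicle of 1.13 (SE 0.16) in wildtype and of 0.15 (SE 0.16) in dKO, with a difference of 0.99 (SE 0.23). From lowest to highest mean, the groups ran from wildtype 4-Cl-HIPP (7.40 TPM) through wildtype vehicle (9.66 TPM), wildtype MTOB (22.7 TPM), dKO 4-Cl-HIPP (36.2 TPM) and dKO vehicle (48.7 TPM) to dKO MTOB (53.5 TPM). Only the last pair of neighbours in this order overlapped in their samples. The wildtype cells under MTOB thus held less Irf7 mRNA than any dKO sample.

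Isg15, on chr4:156283883-156285303 (minus strand), encodes the modifier itself and had the lowest mean normalized count of the members. It was measured at 7.07, 7.72 and 2.51 TPM in wildtype vehicle samples and at 23.3, 11.5 and 21.2 TPM in dKO vehicle samples. The genotypes did not overlap, although wildtype replicate 3 and dKO replicate 2 each lay far below their group. The log2 difference was 1.59 (SE 0.34, limma adjusted p = 0.0048). It was not called when only the compared groups entered the fit (adjusted p = 0.114). Under 4-Cl-HIPP, Isg15 measured 3.34, 4.07 and 5.49 TPM in wildtype and 10.5, 13.9 and 10.6 TPM in dKO. All dKO samples were above all wildtype samples, with a log2 difference of 1.27 (SE 0.34, limma adjusted p = 0.0224). Leaving out replicate 1 or 2 of the wildtype 4-Cl-HIPP group, or replicate 2 of the dKO group, ended this call (adjusted p 0.0666 to 0.093).

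Under MTOB, Isg15 was at 15.9, 16.9 and 9.04 TPM in wildtype and at 30.2, 27.7 and 34.9 TPM in dKO. Each genotype's MTOB samples were above its vehicle samples. The log2 fold change over vehicle was 1.21 (SE 0.34) in wildtype and 0.75 (SE 0.34) in dKO, and the difference of 0.45 carried an SE of 0.47. With a sample left out the wildtype value ran from 0.79 (without vehicle replicate 3) to 1.47, the dKO value from 0.45 (without vehicle replicate 2) to 0.94, and the difference from 0.03 (without wildtype vehicle replicate 3) to 0.75 (without dKO vehicle replicate 2). The mean of the wildtype MTOB group, 13.9 TPM, lay between those of dKO 4-Cl-HIPP (11.7 TPM) and dKO vehicle (18.7 TPM) and overlapped both, while dKO MTOB (31.0 TPM) was clear of all other groups.

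Uba7, on chr9:107852704-107861262 (plus strand), encodes the activating enzyme. Its vehicle samples held 17.2, 12.5 and 10.2 TPM in wildtype and 18.9, 16.8 and 22.1 TPM in dKO, and the groups overlapped. The log2 difference of 0.53 (SE 0.24) did not pass (limma adjusted p = 0.23). Under 4-Cl-HIPP the wildtype samples measured 13.1, 11.2 and 9.35 TPM and the dKO samples 31.0, 24.8 and 17.3 TPM. Here the groups were separate and the log2 difference of 1.03 (SE 0.24) was called (limma adjusted p = 0.0114). The MTOB samples held 21.3, 11.2 and 15.0 TPM in wildtype and 19.2, 26.4 and 27.8 TPM in dKO, overlapping the vehicle samples in both genotypes.

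Ube2l6, on chr2:84628630-84640783 (plus strand), encodes the carrier enzyme. It was at 11.8, 19.6 and 11.8 TPM in wildtype vehicle samples and at 21.2, 18.3 and 19.6 TPM in dKO vehicle samples. Wildtype replicate 2 reached the dKO range, and the log2 difference of 0.46 (SE 0.23) did not pass (limma adjusted p = 0.265). With 4-Cl-HIPP the wildtype samples held 8.33, 10.7 and 11.7 TPM and the dKO samples 15.5, 25.3 and 17.8 TPM. The dKO samples were all higher, with a log2 difference of 0.85 (SE 0.23, limma adjusted p = 0.0242). Under MTOB the values were 20.6, 14.2 and 12.4 TPM in wildtype and 21.1, 18.8 and 27.3 TPM in dKO, within or near the spread of the vehicle samples. The calls of Uba7 and Ube2l6 under 4-Cl-HIPP were both lost when only the compared groups were fitted (adjusted p = 0.067 and 0.0874). Leaving out single samples also ended them: Ube2l6 was no longer called without replicate 1 or 2 of the wildtype 4-Cl-HIPP group or replicate 2 of the dKO group (adjusted p 0.0535 to 0.12), and Uba7 without wildtype replicate 3 or dKO replicate 1 of that treatment (adjusted p = 0.0562 and 0.0653).

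Herc6, on chr6:57557932-57642597 (plus strand), encodes the ligase and was the least abundant member by its mean over the 18 samples, with the narrowest span of group means. In wildtype 4-Cl-HIPP samples Isg15 (4.30 TPM) and Usp18 (4.74 TPM) had lower means than Herc6 (5.41 TPM). The wildtype vehicle samples held 4.31, 5.39 and 2.71 TPM and the dKO vehicle samples 5.26, 5.49 and 7.03 TPM. Under MTOB the values were 4.07, 5.28 and 5.92 TPM in wildtype and 5.18, 4.99 and 5.72 TPM in dKO, and under 4-Cl-HIPP they were 7.17, 4.89 and 4.17 TPM and 5.88, 7.08 and 5.86 TPM. Every pair of neighbouring groups in the order of means overlapped. No tested comparison called Herc6, with log2 differences between genotypes of 0.46 (SE 0.20, limma adjusted p = 0.19) under vehicle and 0.21 (SE 0.20, adjusted p = 0.653) under 4-Cl-HIPP. The interval of the latter ran from -0.22 to 0.63, which reaches slightly past the fold change limit.

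Usp18, on chr6:121222848-121247877 (plus strand), encodes the protease that removes ISG15. It was at 7.47, 6.32 and 6.88 TPM in wildtype vehicle samples and at 38.7, 28.6 and 35.4 TPM in dKO vehicle samples. The groups were far apart, with a log2 difference of 2.15 (SE 0.14, limma adjusted p = 4.30e-08). With 4-Cl-HIPP, Usp18 measured 5.53, 4.17 and 4.53 TPM in wildtype and 19.9, 23.1 and 20.8 TPM in dKO. The genotypes were again separate, by 1.96 on the log2 scale (SE 0.14, limma adjusted p = 1.28e-07).

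Under MTOB, Usp18 reached 26.9, 22.1 and 19.3 TPM in wildtype and 46.4, 43.5 and 57.7 TPM in dKO, above the vehicle samples of the same genotype. The wildtype MTOB samples lay below all dKO vehicle samples. As a description of the values behind the choice, the log2 fold change over vehicle was 1.58 (SE 0.14) in wildtype and 0.51 (SE 0.14) in dKO, and the difference was 1.07 (SE 0.20). In mean TPM, Usp18 went from 6.89 to 22.8 in wildtype and from 34.2 to 49.2 in dKO. Of the group means, that of wildtype MTOB (22.8 TPM) and that of dKO 4-Cl-HIPP (21.3 TPM) were neighbours with overlapping samples, and all other neighbours were separate.

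Across the set, 3 of the 6 members were past the limits under MTOB in wildtype (Irf7, Isg15 and Usp18), against 2.01% of all tested genes, and 0 of 6 in dKO, against 1.63%. For the difference of the MTOB effect between genotypes, 0 members were past the adjusted p limit, as against 0.0916% of all genes. The choice of members used these contrasts and thereby shaped these counts. The counts are therefore not a test of the set, and nothing is read from setting them beside all genes. Under MTOB the distance between the genotypes was 1.22 (SE 0.16) for Irf7, 1.14 (SE 0.34) for Isg15 and 1.08 (SE 0.14) for Usp18 on the log2 scale. The macrophage marker Adgre1 went from 29.1 ± 5.55 to 102 ± 4.43 TPM with MTOB in wildtype and from 8.93 ± 1.04 to 12.6 ± 1.12 TPM in dKO. Under vehicle it was thus lower in dKO, where the members had higher means. With MTOB in wildtype, Cd68, Lyz2, Spi1 and Fcgr1 also had higher means. Csf1r had a lower mean there (896 and 769 TPM), and Itgam was nearly level (15.79 and 15.85 TPM). Itgam differed between the lines, with 15.8 ± 4.51 TPM in wildtype and 47.9 ± 3.64 TPM in dKO vehicle samples (SD, n = 3). The sum of all 7 markers was 2260 to 2319 TPM in wildtype vehicle, 2430 to 2568 TPM in wildtype MTOB, 2300 to 2357 TPM in dKO vehicle and 2216 to 2529 TPM in dKO MTOB samples, and its part in the members' values was not tested.

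**Figure D2:**
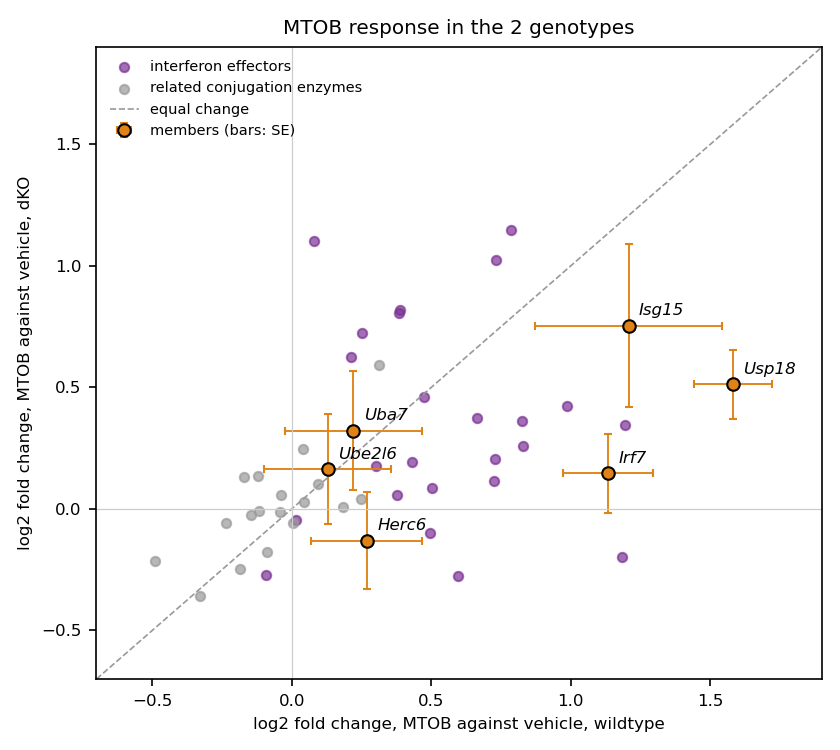
Log2 fold change of MTOB over vehicle in wildtype (x axis) and in dKO (y axis) for the 6 members (orange, bars are SE) and for 2 other gene lists. Irf7 and Usp18 lie below the line of equal change, at 1.13 against 0.15 and 1.58 against 0.51, while Uba7 and Ube2l6 lie near it; the members were chosen by these values.

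4-Cl-HIPP was not followed by a called change of any member. In wildtype 0 of 6 members were called (0.14% of all tested genes). There 2 of 6, Irf7 and Usp18, had an unadjusted limma p below 0.05, as did 1341 of all 16383 genes. In dKO 0 of 6 were called (0.153% of all genes). There 2 of 6, the same 2 genes, had an unadjusted limma p below 0.05, as did 1388 of all 16383 genes. The means of Irf7, Isg15, Usp18 and Ube2l6 were lower with 4-Cl-HIPP than with vehicle in both genotypes. Irf7 was 0.766 times its vehicle mean in wildtype and 0.744 times in dKO, with samples that did not overlap the vehicle samples in either. Usp18 was 0.689 times its vehicle mean in wildtype (log2 fold change -0.46, SE 0.14, limma adjusted p = 0.288) and 0.621 times in dKO (-0.65, SE 0.14, limma adjusted p = 0.0558), also without overlap.

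The dKO value of Usp18 lay at the edge of the threshold. It was called with an adjusted p of 0.0365 when the test was kept to genes whose mean normalized count reached 10, and with an adjusted p of 0.0498 after quantile normalization. The same held without wildtype MTOB replicate 1, dKO vehicle replicate 2 or dKO MTOB replicate 3 (adjusted p 0.0439 to 0.0492). The 95% intervals of the 4-Cl-HIPP effect ran from -0.76 to -0.16 for Usp18 and from -0.70 to -0.01 for Irf7 in wildtype, and from -0.96 to -0.35 and from -0.76 to -0.07 in dKO. For Isg15 they ran from -0.98 to 0.45 in wildtype and from -1.30 to 0.13 in dKO, so that changes past the fold limit lie within them. The 4-Cl-HIPP effect was not called as different between the genotypes for any member by limma (0 of 6, none with an unadjusted p below 0.05), nor for any gene at all (0% of 16383, with 734 at an unadjusted p below 0.05). The difference in effect, wildtype minus dKO, was 0.19 for Usp18 (95% interval -0.23 to 0.62), 0.06 for Irf7 (-0.43 to 0.55) and 0.32 for Isg15 (-0.69 to 1.33).

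**Figure D3:**
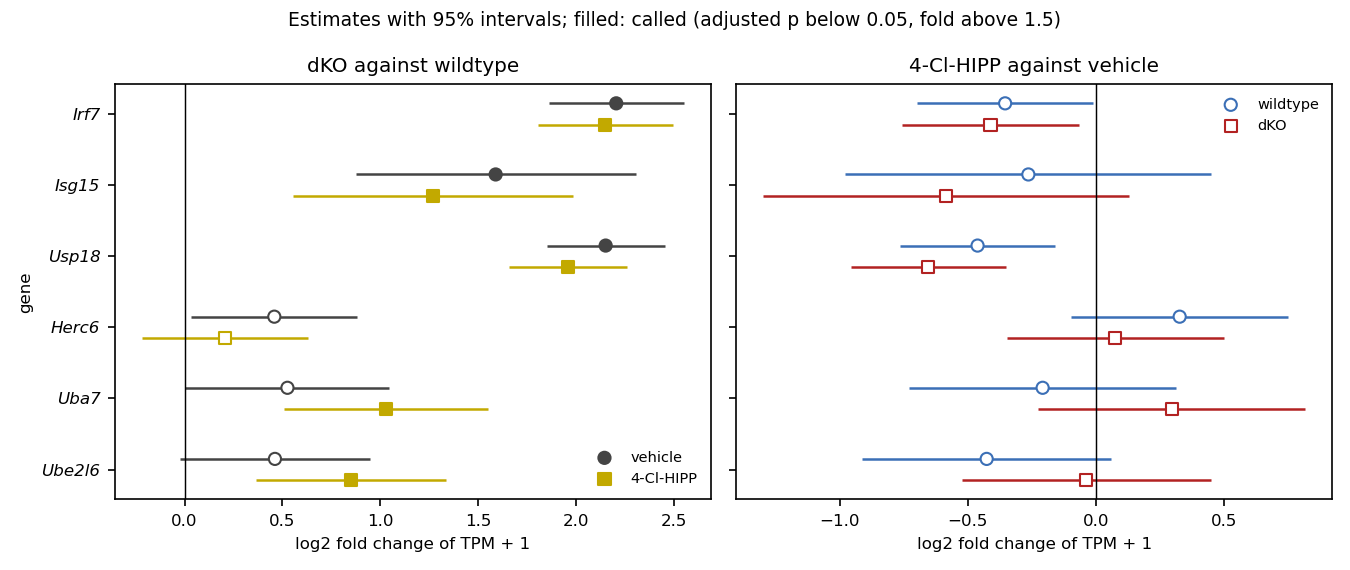
Log2 fold change of TPM + 1 with its 95% interval for each member in the 4 tested comparisons, dKO against wildtype on the left and 4-Cl-HIPP against vehicle on the right (limma, n = 3 per group). Filled symbols passed both limits: 3 members under vehicle and 5 under 4-Cl-HIPP on the left, and 0 on the right.

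The members divided by how much of their variance lay within groups. On the log2 scale, genotype took 76.9% of the sum of squares of Irf7, 59.1% of Usp18 and 47.7% of Isg15, and treatment 15.9%, 34.9% and 37.3%. Within-group spread took 2.70% for Irf7, 1.73% for Usp18 and 14.1% for Isg15. For the enzymes it took 31.1% for Uba7 and 32.8% for Ube2l6, and for Herc6 60.5%. The spread between replicates was thus the greatest share for Herc6 alone among the 6. All 18 samples entered these shares, the MTOB samples behind the choice of Irf7 and Usp18 included. The choice therefore favoured a low within-group share for these genes, and the shares are a description.

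In some samples every member lay on the same side of its group's mean. Of the 6 members, 0 were above their group's mean log2 value in dKO vehicle replicate 2 and in dKO MTOB replicate 1, and 6 of 6 were above it in dKO MTOB replicate 3 and in dKO 4-Cl-HIPP replicate 2. Over the 18 samples, deviations from the group means correlated with r = 0.62 between Isg15 and Ube2l6, 0.62 between Irf7 and Ube2l6 and 0.54 between Irf7 and Isg15, and with r = -0.13 between Irf7 and Herc6. These correlations describe the libraries, since members of a sample share its RNA and its scaling to a fixed sum.

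The genes with the pattern most like Irf7 over the 18 samples, among 11043 other genes whose mean normalized count reached 10, were Rtp4 (Pearson r = 0.994), Ddx58 (0.991), Ifitm3 (0.990), Oas3 (0.989) and Oas2 (0.987). The 5 nearest Usp18 included Parp14 (r = 0.987), Slfn5 (0.986), Irgm1 (0.978) and Igtp (0.973). All of these are known interferon-stimulated genes. Usp18 ranked 23 in likeness to Irf7 (r = 0.961) and Isg15 132 (r = 0.897), whereas Ube2l6 ranked 326, Uba7 537 and Herc6 2326. By rank correlation, 3 of the 5 genes nearest Irf7 were retained and 1 of the 5 nearest Usp18. Samples of a group share their treatment, so that r mostly follows the 6 group means. The MTOB and vehicle samples behind the choice of Irf7 and Usp18 entered r. The choice thus favoured a high r between Irf7 and Usp18, and the correlations and ranks are a description. Rtp4, a chaperone of membrane receptors, went from 15.2 ± 0.939 TPM in wildtype vehicle to 36.3 ± 6.36 TPM in wildtype MTOB and 70.3 ± 9.86 TPM in dKO vehicle samples. Parp14, an ADP-ribosyltransferase, went from 4.77 ± 0.365 to 10.5 ± 1.13 and 12.8 ± 2.19 TPM over the same groups.

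Other interferon effectors, the genes of antiviral proteins made after interferon signalling, were also higher in dKO. Of 24 tested, 16 were called higher and 0 lower in dKO under vehicle, and all 24 had a log2 difference above 0, with a median of 0.85 against 0.01 over all genes. Ifi44l stood at 4.33 TPM in wildtype and 68.8 TPM in dKO vehicle samples (log2 difference 3.73, SE 0.22, limma adjusted p = 1.29e-08). Rtp4 differed by 2.13 (SE 0.17, limma adjusted p = 3.14e-07), Rsad2, which makes an antiviral nucleotide, by 2.07 (SE 0.17, limma adjusted p = 4.84e-07), and Ifi44 by 2.03 (SE 0.18, limma adjusted p = 9.85e-07). Under 4-Cl-HIPP 16 of 24 were called higher in dKO as well. With a sample left out, the counts were 11 to 16 and 12 to 16.

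Under MTOB, 5 of the 24 effectors were called higher in wildtype and 2 in dKO. In wildtype they were Rtp4 (log2 fold change 1.19, SE 0.17), Parp14 (0.99, SE 0.13), Oas2 (0.83, SE 0.13), Eif2ak2 (0.73, SE 0.10) and Oas3 (0.72, SE 0.11), with limma adjusted p-values of 0.00026, 0.000185, 0.000896, 0.000242 and 0.000685. In dKO they were Ifit3 (1.15, SE 0.24, limma adjusted p = 0.00818) and Rsad2 (1.10, SE 0.17, limma adjusted p = 0.000711). Rsad2 was at 0.0448 TPM in wildtype vehicle and 0.105 TPM in wildtype MTOB samples, close to absent. 4-Cl-HIPP lowered 1 effector, Oasl1, from 10.5 to 5.85 TPM in wildtype (log2 fold change -0.75, SE 0.15, limma adjusted p = 0.045). This call was lost in 12 of 18 fits that left out a sample. In dKO 0 effectors were called, and 9 had an unadjusted limma p below 0.05, as did 1388 of all 16383 genes.

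Enzymes of the ubiquitin system and of other ubiquitin-like systems, related in sequence or function to Uba7, Ube2l6 and Herc6, were tested beside them. Of these 18, 0 were called by limma in dKO against wildtype under vehicle and 0 under 4-Cl-HIPP, with 5 and 7 at an unadjusted p below 0.05. Among them, 3 under vehicle and 2 under 4-Cl-HIPP passed the adjusted p limit and missed the fold limit. Their median log2 difference was 0.02 under vehicle and -0.04 under 4-Cl-HIPP. Among 10 further genes of the ISG15 system, Itgal, the LFA-1 subunit that binds secreted ISG15, stood at 4.38 TPM in wildtype and 36.4 TPM in dKO vehicle samples (log2 difference 2.80, SE 0.09, limma adjusted p = 1.28e-11). Its partner Itgb2 was also higher (0.82, SE 0.09, limma adjusted p = 1.38e-05), and the deubiquitinase Usp16 was lower (-0.74, SE 0.20, limma adjusted p = 0.0208). The ligases Arih1 and Trim25 were not called, with log2 differences of -0.03 (SE 0.06) and 0.17 (SE 0.07). With a sample left out, the count called in this list under vehicle went from 3 to 2 in 4 of 18 fits. Under 4-Cl-HIPP the Usp16 means were 42.7 TPM in wildtype and 43.5 TPM in dKO, and 0 of the 10 genes were called lower in dKO.

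Usp2, a deubiquitinase with reported cross-reactivity to ISG15, was the gene of that list called with a treatment. Trim25 and Usp5 passed the adjusted p limit alone with MTOB in wildtype, by 0.34 (SE 0.07, limma adjusted p = 0.00742) and -0.24 (SE 0.05, limma adjusted p = 0.00569), as did Trim25 in dKO (0.25, SE 0.07, limma adjusted p = 0.0477). Usp2 rose with 4-Cl-HIPP from 28.5 to 48.0 TPM in wildtype (log2 fold change 0.75, SE 0.13, limma adjusted p = 0.0208) and from 31.5 to 57.6 TPM in dKO (0.86, SE 0.13, limma adjusted p = 0.0075). With MTOB it fell in both genotypes, to 19.4 TPM in dKO (-0.68, SE 0.13, limma adjusted p = 0.00547, called) and to 19.7 TPM in wildtype (-0.49, SE 0.13, limma adjusted p = 0.0377, below the fold limit). The dKO call was lost without dKO MTOB replicate 1, with a pseudocount of 5 and when other groups were left out of the fit. The wildtype call with 4-Cl-HIPP was lost in 4 of 18 fits that left out a sample. Usp18, by comparison, had lower means with 4-Cl-HIPP and higher means with MTOB in both genotypes.

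**Figure D4:**
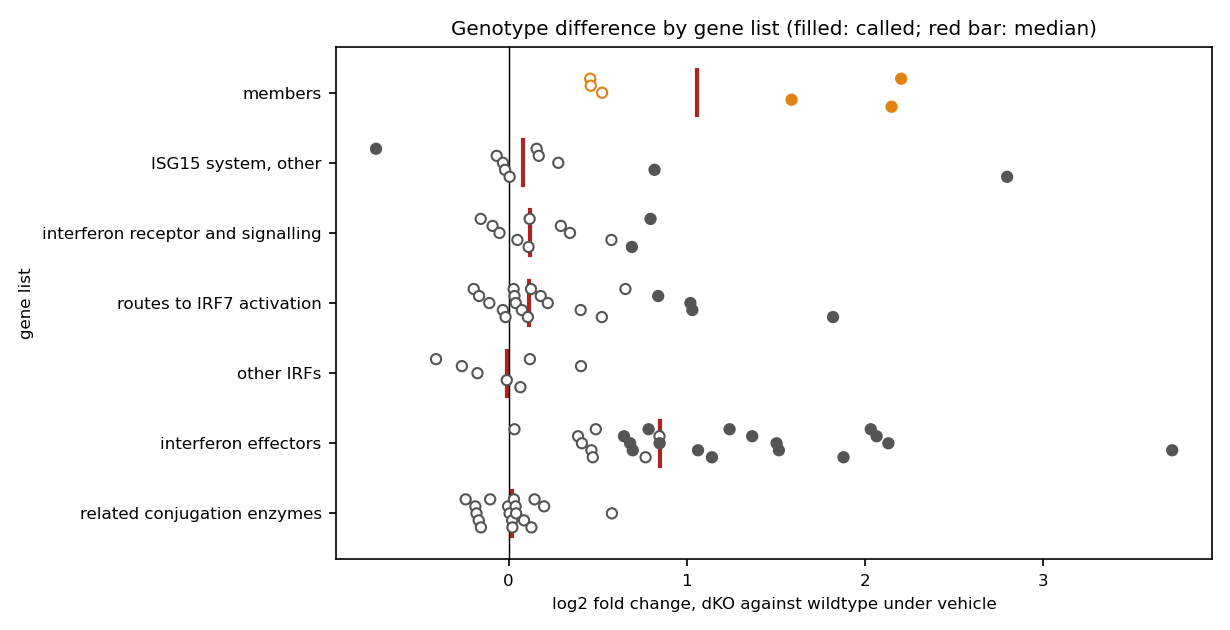
Log2 fold change of dKO against wildtype under vehicle for the 6 members and 6 lists of other pathway genes, 1 point per gene; filled points were called and red bars are list medians. The interferon effectors have a median of 0.85 with 16 of 24 called, and the related conjugation enzymes a median of 0.02 with 0 of 18 called.

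Upstream of the set, the interferon receptor genes Ifnar1 and Ifnar2 were not called between genotypes under vehicle, with log2 differences of 0.05 (SE 0.12) and -0.16 (SE 0.09). Of 11 receptor and signalling genes tested, 2 were called higher in dKO under vehicle and 1 under 4-Cl-HIPP. With the called genes included, 6 under vehicle and 5 under 4-Cl-HIPP passed the adjusted p limit between genotypes, and the others of these missed the fold limit. Under MTOB 0 of the 11 were called against vehicle by limma in either genotype. There 4 in wildtype and 2 in dKO passed the adjusted p limit and missed the fold limit, and 7 and 4 had an unadjusted p below 0.05.

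Of 20 genes on the routes that activate IRF7, 4 were called higher in dKO under vehicle, namely the RNA sensor genes Ddx58, Ifih1 and Dhx58 and Sting1, the adaptor of the DNA sensor cGAS. Ddx58, which encodes the RNA sensor RIG-I, was at 10.1 TPM in wildtype and 38.3 TPM in dKO (log2 difference 1.82, SE 0.12, limma adjusted p = 5.43e-08). Ifih1 (1.03, SE 0.13), Dhx58 (1.02, SE 0.19) and Sting1 (0.84, SE 0.12) were called with limma adjusted p-values of 6.70e-05, 0.00178 and 0.000241. Mavs, the adaptor of the RNA sensors RIG-I and MDA5, and Cgas itself were not called (-0.17, SE 0.07, and 0.11, SE 0.07). With MTOB, 4 of the 20 were called higher in wildtype: Ikbke, a kinase of IRF7 (log2 fold change 1.50, SE 0.16, limma adjusted p = 2.55e-05), Ddx58 (0.97, SE 0.12, limma adjusted p = 0.000103), Tlr9 (0.90, SE 0.14, limma adjusted p = 0.000615) and Dhx58 (0.67, SE 0.19, limma adjusted p = 0.0449). With a sample left out, 3 or 4 were called, and fewer than 4 in 10 of 18 fits. Fewer than 4 were also called in 7 of 11 other settings, with 2 at a pseudocount of 5. In dKO 2 of the 20 were called, Tlr9 (0.80, SE 0.14, limma adjusted p = 0.002) and Ikbke (0.65, SE 0.16, limma adjusted p = 0.0241). The dKO count was 0 with a pseudocount of 5 or when other groups were left out of the fit, and 1 in 4 of 18 fits that left out a sample. With 4-Cl-HIPP 0 of the 20 were called by limma in either genotype, with 3 in wildtype and 5 in dKO at an unadjusted p below 0.05. Of all 16383 genes, 1341 in wildtype and 1388 in dKO had such a p.

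Among the 7 other interferon regulatory factors, 0 were called by limma between genotypes under vehicle. There 2 of the 7 passed the adjusted p limit and missed the fold limit. Irf8, a lineage factor of macrophages, rose with MTOB in wildtype from 30.7 to 58.3 TPM (log2 fold change 0.90, SE 0.07, limma adjusted p = 6.09e-07). In dKO it rose from 23.0 to 31.3 TPM (0.43, SE 0.07, limma adjusted p = 0.00111), below the fold limit, and the difference between genotypes did not pass (0.47, SE 0.10, limma adjusted p = 0.13). Irf1 was higher in dKO under 4-Cl-HIPP (0.88, SE 0.12, limma adjusted p = 8.00e-05). Of the interferon ligands examined, Ifnb1 was in the table. It was listed at 0 in all 9 wildtype samples, at 1.04, 0 and 0.781 TPM in dKO vehicle, at 0.911, 1.30 and 0 TPM in dKO MTOB and at 0 in all dKO 4-Cl-HIPP samples.

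Promoter sequence was examined for all 6 members. Irf7 and Usp18 had correlated with other interferon-stimulated genes, over samples that included those behind their choice. The window from 250 bases before to 50 bases after the annotated start (GRCm39 reference, canonical transcripts of Gencode M39) was searched for GAAANNGAAA, the core of the interferon-stimulated response element, on both strands (TTTCNNTTTC on the other), and overlapping matches were counted. It was found in 464 of the 12924 promoters of protein-coding genes in the table (3.59%), in 15 of 24 effectors (62.5%), in 1 of 18 related enzymes (5.56%) and in 2 of the 6 members, Isg15 and Usp18. The stretches that hold the matches are given 5′ to 3′ on the strand of the gene, with the matches in capitals. In Isg15 the 3 matches overlap and begin 50, 44 and 38 bases before the start, and in Usp18 the 2 matches begin 75 bases before it (on the other strand) and 51 bases before it.
Isg15, chr4:156285312-156285373, minus strand: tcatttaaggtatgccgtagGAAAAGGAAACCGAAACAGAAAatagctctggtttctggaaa
Usp18, chr6:121222762-121222835, plus strand: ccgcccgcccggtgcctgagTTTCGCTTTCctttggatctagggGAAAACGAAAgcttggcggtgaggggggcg
These letters were not in the windows of Irf7, Uba7, Ube2l6 and Herc6. Moving with interferon-stimulated genes and holding a match thus did not go together for Irf7. A match is a description of the reference sequence, and binding was not measured.

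The libraries were unstranded, so reads from genes that overlap a member on the opposite strand could not be separated by strand. Irf7 overlaps Phrf1 by 63 bases, and Phrf1 was at 47.8 to 66.8 TPM over the 18 samples. Usp18 overlaps the lncRNA Gm44148, which was at 0 to 1.61 TPM, and Uba7 overlaps Inka1 by 39 bases, which was at 8.81 to 16.1 TPM. The part of these overlaps in the members' values was not tested.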

How the data were processed

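RNA from J774.1 cells (18 samples, 6 groups of 3) had been sequenced from an unstranded TruSeq mRNA library, paired-end. Per the study's methods and the labels, the authors quantified transcripts with Salmon 1.9.0 (GC bias correction) on Gencode M28 (GRCm39), imported gene-level values with tximport, and used DESeq2 1.44.0. The deposited values per sample are TPM, which sum to 999766 to 999897 per sample over the genes listed, so depth is unknown. The deposited mean normalized count, a signal the authors averaged over all samples after size-factor scaling, was used here to filter genes and for the variance trend. Deposited log2 fold changes and adjusted p-values of the authors' own comparisons of each inhibitor with vehicle were not used.

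Samples were grouped by the titles. Of 18204 genes, the 16383 whose mean normalized count exceeded its own percentile 10 (0.222) were tested. limma 3.58.1 in R 4.3.3 was fitted to log2(TPM + 1) with 6 group means, all 18 samples and a variance trend, and p-values were adjusted by Benjamini-Hochberg over all genes tested. Fold changes on this scale understate the change of low genes. Genes were called at an adjusted p below 0.05 and a fold change above 1.5, differences between effects at the adjusted p alone. The script was tested on simulated data. The members and gene lists were chosen with earlier results of these data known. Named were all members, Ctbp1 and Ctbp2, the 5 genes most like Irf7 and Usp18, a few fixed pathway genes, and up to 4 called genes per list and comparison with the largest change. The effector Oas3 under MTOB, the named macrophage markers and the overlapping genes were added after their values were seen. Some named signalling genes are not reported here. Figures were drawn with matplotlib 3.10.9.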

Additional observations from a re-analysis of the deposited data

Results flagged for a closer look

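The MTOB effect differed between wildtype and dKO for 2 genes of the pathway lists, by a limma test of the difference itself. For Ptpn6, a phosphatase that dampens receptor signalling, the difference (wildtype minus dKO) was 0.32 on the log2 scale (SE 0.04, adjusted p = 0.0098): its mean went from 233.7 to 267 TPM with MTOB in wildtype and from 253.7 to 232 TPM in dKO. For Adar, an RNA-editing enzyme with an interferon-inducible form, the difference was 0.41 (SE 0.07, adjusted p = 0.0452), with means of 56.5 and 80.4 TPM in wildtype and 78.9 and 83.9 TPM in dKO. Neither gene's change passed the fold change limit within a genotype. The Adar difference was not called in 16 of 18 fits that left out a sample and in 6 of 11 other settings. The Ptpn6 difference was called in all 18 of those fits and not called in 2 of the 11 other settings.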

How the results depend on the processing

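Alternatives covered pseudocounts of 0.1 and 5, no filter, a stricter filter (mean normalized count of 10 or more), median-of-ratios scaling, quantile normalization, other variance trends, only the compared groups in the fit, the replicate block, and leaving out each of the 18 samples. In dKO against wildtype under vehicle, 3 members were called in all of them but the fit of only the compared groups, where 2 were (Isg15 lost, adjusted p = 0.114). Under 4-Cl-HIPP the count went from 5 to 3 with only the compared groups, and ranged from 3 to 5 when a sample was left out. It was 3 without replicate 1 or 2 of wildtype 4-Cl-HIPP or replicate 2 of dKO 4-Cl-HIPP, where Isg15 and Ube2l6 were lost (adjusted p 0.0666 to 0.093 and 0.0535 to 0.12). Uba7 was lost without wildtype 4-Cl-HIPP replicate 3 (adjusted p = 0.0562) or dKO 4-Cl-HIPP replicate 1 (adjusted p = 0.0653).

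For 4-Cl-HIPP against vehicle in dKO the count of members called went from 0 to 1 with the stricter filter and with quantile normalization, and ranged from 0 to 1 when a sample was left out. Usp18 was the member called, also without wildtype MTOB replicate 1, dKO vehicle replicate 2 or dKO MTOB replicate 3 (adjusted p 0.0439 to 0.0492). In wildtype, and for the difference between genotypes, the count was 0 throughout. Small 4-Cl-HIPP values that had not been called turned sign when a sample was left out: Ube2l6 in dKO (0.01, 0.11 and 0.01 in 3 fits; range -0.23 to 0.11), Herc6 in dKO (-0.0023; range -0.0023 to 0.19), and the difference between genotypes of Isg15 (-0.10; range -0.10 to 0.62) and Irf7 (-0.0636, -0.0949 and -0.0741; range -0.0949 to 0.16). Of the single-member values under alternatives, 1520 kept direction and side of the threshold (for MTOB, moved by less than the replicate spread); the cause of the other changes was not tested.

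With a pseudocount of 5, calls over all genes went from 329 to 185 for MTOB in wildtype (90.3% of them higher, against 77.5%), from 267 to 131 for MTOB in dKO (85.5% higher) and from 792 to 426 for dKO against wildtype under vehicle, and the log2 MTOB effect in wildtype was 0.90 for Irf7 and 1.22 for Usp18. The replicate block, with the replicate number as a term, left the member counts at 3, 5, 0, 0 and 0 and the calls over all genes at 778 under vehicle. Same-numbered samples did not deviate together (r from -0.14 to 0.09, with 0 of 45 pairs above 0.1), and 1 of 18 samples correlated best with its own number. The Adar call was lost in 16 of 18 fits that left out a sample and in 6 of 11 other settings, both forms of the replicate block among them. The Ptpn6 call was lost in 2 of these 11, without a variance trend and when other groups were left out. Isg15, with the lowest mean normalized count, had the widest intervals.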
